A study of Saccharomyces cerevisiae with 12 samples.

Results

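The 35 general stress response genes described here are yeast genes known to be induced through the transcription factors Msn2 and Msn4 and were chosen by name, with no measured value in the rule. Earlier results of these data were known when the choice was made. Chaperone genes and the genes of trehalose and glycogen metabolism were left out of the choice. All 35 were found, each with 1 probe set, among the 5449 genes measured. Their RNA was measured in EC1118, an industrial diploid wine strain of Saccharomyces cerevisiae, at 15 °C and at 30 °C, and in CEN.PK113-7D, a laboratory strain that is a haploid of mating type a, at 15 °C and at 30 °C. All 4 groups were steady-state chemostats without oxygen on minimal medium with anaerobic growth factors, limited by nitrogen. The dilution rate was 0.05 per h in every culture, so growth rate was held equal between the temperatures and between the strains. Each group held 3 cultures described as biological triplicates, with 1 Affymetrix array per culture.

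Msn2 and Msn4 are related zinc-finger activators that bind a short stress response element in promoters. While protein kinase A is active they stay in the cytoplasm, and heat, osmotic stress, oxidants, starvation or slow growth sends them to the nucleus, where they switch on a broad set of protective genes. The set includes catalase, small hydrophilic proteins that protect dried cells, minor isoenzymes of carbon metabolism, inhibitors of vacuolar proteases and proteins of the wall and membranes. Many of its members respond to several stresses and are low in fast-growing cells with ample nutrients.

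The deposited values are intensities on a linear scale with a floor of 10, and a log2 difference is the difference of group means of log2 intensity. Array medians were 329 to 353 at 15 °C and 356 to 371 at 30 °C. Log2 intensities of replicates correlated with r from 0.975 to 0.994 across genes, which are not independent. Replicate 3 of CEN.PK113-7D at 15 °C and replicate 2 of EC1118 at 30 °C stood farthest from a partner, with r of 0.975 and 0.979 against replicate 1 of their own group. The strain labels were checked with 6 genes that mating type a haploids transcribe and diploids repress. All 6 were lower in EC1118 at both temperatures, and MFA1, a pheromone precursor, read 144 to 248 in EC1118 and 2978 to 5337 in CEN.PK113-7D. The arrays were designed on a laboratory strain, so a strain difference in RNA and a strain difference in probe sequence cannot be told apart, while a temperature effect within a strain compares the same sequence.

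At 15 °C the stress genes were low. In EC1118 24 of the 35 fell, 0 rose and 11 did not pass the test, and in CEN.PK113-7D the counts were also 24, 0 and 11. All 35 had a lower mean of log2 intensity at 15 °C than at 30 °C in each strain. The test was limma's moderated test over all 5449 genes with Benjamini-Hochberg adjustment at 0.05, and with unadjusted p under 0.05 the count of members higher at 15 °C was still 0 in both strains. The share of members called lower at 15 °C was 68.6% in each strain, where 30.0% of all genes were called lower in EC1118 and 36.6% in CEN.PK113-7D. The median log2 change of the members was -1.42 in EC1118, where all genes had a median of -0.04, and -1.34 in CEN.PK113-7D, where all genes had a median of -0.11. Without replicate 2 of EC1118 at 30 °C the EC1118 median of the members was -0.84. In these bulk samples, fewer cells that express a gene and less RNA per cell cannot be told apart.

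**Figure D1:**
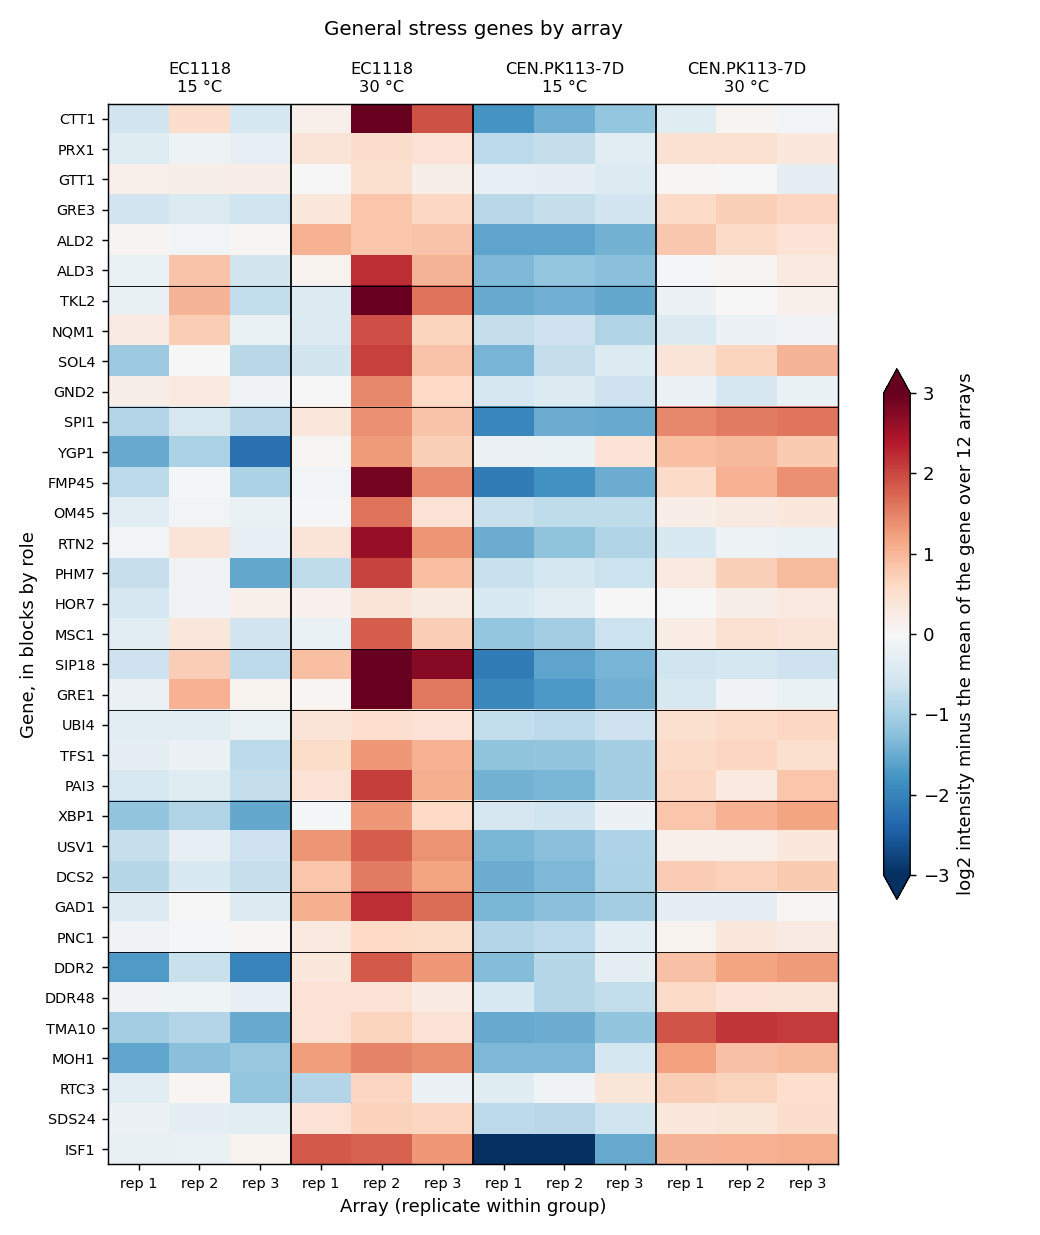
Log2 intensity of each of the 35 genes on each of the 12 arrays, as the deviation from that gene's mean over all arrays, with genes in rows, arrays in columns by group and colours that saturate at the ends of the scale. The CEN.PK113-7D columns at 15 °C are the lowest, with median deviations of -1.31, -1.05 and -0.75, and within EC1118 at 30 °C the median deviation is 0.31 on replicate 1, 1.53 on replicate 2 and 0.86 on replicate 3.

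The groups did not overlap, with every 15 °C array below every 30 °C array, for 22 members in EC1118 and for 33 in CEN.PK113-7D. Among all genes this held for 33.9% in EC1118 and 39.0% in CEN.PK113-7D. Among the members called lower, the fitted fall was at least 2-fold for 17 in EC1118 and 21 in CEN.PK113-7D. The same 20 genes passed in both strains, namely DDR2, TMA10, MOH1, SPI1, GRE3, TFS1, PNC1, ALD2, GAD1, XBP1, PAI3, OM45, FMP45, PRX1, SDS24, DCS2, ISF1, USV1, UBI4 and DDR48. CTT1, SIP18, YGP1 and RTN2 passed in EC1118 and not in CEN.PK113-7D, and HOR7, ALD3, SOL4 and MSC1 passed in CEN.PK113-7D and not in EC1118. A difference of the temperature effects between the strains was called for none of these 8. GRE1, TKL2, GND2, NQM1, GTT1, RTC3 and PHM7 passed in neither strain. CEN.PK113-7D at 15 °C had the lowest group mean for 29 members, and EC1118 at 30 °C the highest for 27.

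The fit shares 1 estimate of the spread over the 4 groups, and the EC1118 arrays at 30 °C varied more in these genes than any other group. With the 6 EC1118 arrays fitted alone 20 members fell, and with the 6 CEN.PK113-7D arrays fitted alone 33 fell. The CEN.PK113-7D fit alone added CTT1, GRE1, NQM1, PHM7, RTC3, RTN2, SIP18, TKL2 and YGP1, with adjusted p from 0.000363 to 0.0266. The EC1118 fit alone lost CTT1, FMP45, OM45 and RTN2, with adjusted p from 0.0728 to 0.135. With each of the 12 arrays left out in turn, 21 to 32 members fell in EC1118 and 19 to 30 in CEN.PK113-7D. Of the EC1118 fits, the one without replicate 1 at 30 °C gave the 32, by adding ALD3, GND2, GRE1, MSC1, NQM1, PHM7, SOL4 and TKL2 (adjusted p from 0.00201 to 0.0336).

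**Figure D2:**
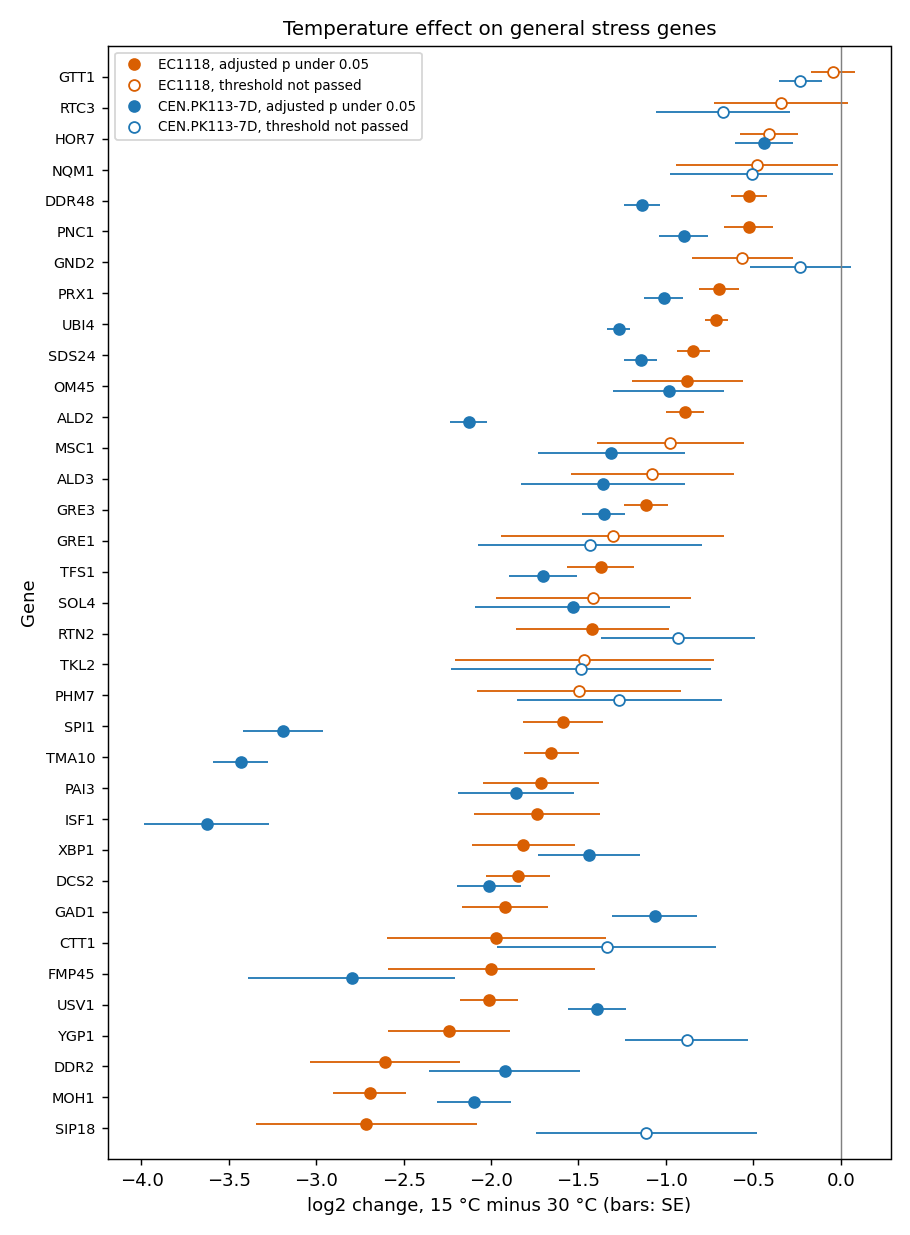
Log2 change at 15 °C relative to 30 °C for each of the 35 genes in EC1118 and in CEN.PK113-7D, with bars of 1 limma standard error and filled marks for adjusted p under 0.05. Every change is below 0, and ISF1, TMA10 and SPI1 lie lowest in CEN.PK113-7D.

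Genes against oxidants and reactive aldehydes differed in how far they moved. CTT1, the cytosolic catalase that breaks down hydrogen peroxide, read 145, 310.3 and 149 at 15 °C against 238, 2079.9 and 814 at 30 °C in EC1118. In CEN.PK113-7D it read 63.0, 78.0 and 96.7 at 15 °C against 166, 229 and 202 at 30 °C. The CEN.PK113-7D groups were apart, whereas in EC1118 replicate 1 at 30 °C lay below replicate 2 at 15 °C. CTT1 fell 3.92-fold in EC1118 (log2 change -1.97 ± 0.63 SE, adjusted p = 0.0217), and its log2 change in CEN.PK113-7D was -1.34 ± 0.63 SE (adjusted p = 0.0897). Without EC1118 replicate 2 at 30 °C the EC1118 fold of CTT1 was 2.34 (adjusted p = 0.0675), and without replicate 1 it was 6.91 (adjusted p = 0.000721). It also missed the threshold without replicate 1 or 3 at 15 °C or replicate 3 at 30 °C, at adjusted p from 0.0581 to 0.0696. PRX1, the mitochondrial peroxiredoxin, fell 1.62-fold in EC1118 and 2.02-fold in CEN.PK113-7D. GRE3, an aldose reductase, fell 2.16-fold in EC1118 and 2.56-fold in CEN.PK113-7D. GTT1, a glutathione transferase of the endoplasmic reticulum, read 822 to 840.3 at 15 °C and 738 to 1034 at 30 °C in EC1118, and its groups overlapped in both strains. The peroxisomal catalase gene CTA1, which is no member, passed in neither strain. Its log2 change was 1.18 ± 0.46 SE in EC1118 (adjusted p = 0.0504) and -0.39 ± 0.46 SE in CEN.PK113-7D (adjusted p = 0.491). CTA1 was dim, and in EC1118 at 30 °C it read 10.4, 31.7 and 10.3, near the floor of 10.

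Hydrophilins are small hydrophilic proteins linked to survival of drying, and the 2 hydrophilin genes of the set, SIP18 and GRE1, were low in CEN.PK113-7D. SIP18 read 155, 397 and 137 at 15 °C against 445, 3423 and 1565 at 30 °C in EC1118. In CEN.PK113-7D it read 55.4, 78.7 and 90.7 at 15 °C against 157, 164 and 155 at 30 °C. Its level at 30 °C was even across the CEN.PK113-7D arrays and spread 7.69-fold across those of EC1118. SIP18 fell 6.57-fold in EC1118 (adjusted p = 0.00448), and the fold was 11.4 without replicate 1 at 30 °C and 4.10 without replicate 2. In CEN.PK113-7D its log2 change was -1.11 ± 0.63 SE (adjusted p = 0.155), with the groups apart. GRE1 read 162, 379.6 and 198 at 15 °C against 189, 1779.5 and 545 at 30 °C in EC1118, and 48.0, 55.6 and 67.4 against 131, 170.4 and 158 in CEN.PK113-7D. The EC1118 groups of GRE1 overlapped and its CEN.PK113-7D groups did not, and it passed in neither strain, with log2 changes of -1.30 ± 0.64 SE and -1.43 ± 0.64 SE (adjusted p = 0.109 in EC1118 and 0.0772 in CEN.PK113-7D). Without replicate 1 at 30 °C the EC1118 fold of GRE1 was 4.28 and passed (adjusted p = 0.00556), against 2.47 with it.

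DDR2, HOR7 and DDR48 are named for DNA damage or osmotic stress, and they moved by different amounts. DDR2, a small stress protein of unclear function, read 418, 861 and 343 at 15 °C against 1691, 4898 and 3361 at 30 °C in EC1118. In CEN.PK113-7D it read 549, 753 and 1125 at 15 °C against 2491, 3068 and 3311 at 30 °C. All 30 °C arrays were above all 15 °C arrays in both strains, and DDR2 fell 6.09-fold in EC1118 (adjusted p = 0.000613) and 3.79-fold in CEN.PK113-7D (adjusted p = 0.00328). HOR7, its paralogue, read 3662 to 5794 at 15 °C against 5679 to 6737 at 30 °C in EC1118, and 3778 to 5123 against 5219 to 6382 in CEN.PK113-7D. HOR7 fell 1.35-fold in CEN.PK113-7D (adjusted p = 0.0439), and in EC1118 its log2 change was -0.41 ± 0.17 SE (adjusted p = 0.0589). The HOR7 call ended when CEN.PK113-7D lost its replicate 1 or 2 at 15 °C or 2 or 3 at 30 °C, or without EC1118 replicate 2 at 15 °C or any 1 EC1118 array at 30 °C (adjusted p from 0.0513 to 0.14). It also ended with median centring (adjusted p = 0.0859), quantile normalization (adjusted p = 0.124) and eBayes with its trend and robust options (adjusted p = 0.0505). DDR48 read 1988, 1953 and 1805 at 15 °C against 2862, 2883 and 2536 at 30 °C in EC1118, and 1544, 1179.5 and 1282 against 3170.1, 2831 and 2771 in CEN.PK113-7D. Its replicates were close together and it fell 1.44-fold in EC1118 and 2.20-fold in CEN.PK113-7D (adjusted p = 0.00166 and 1.27e-05).

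**Figure D3:**
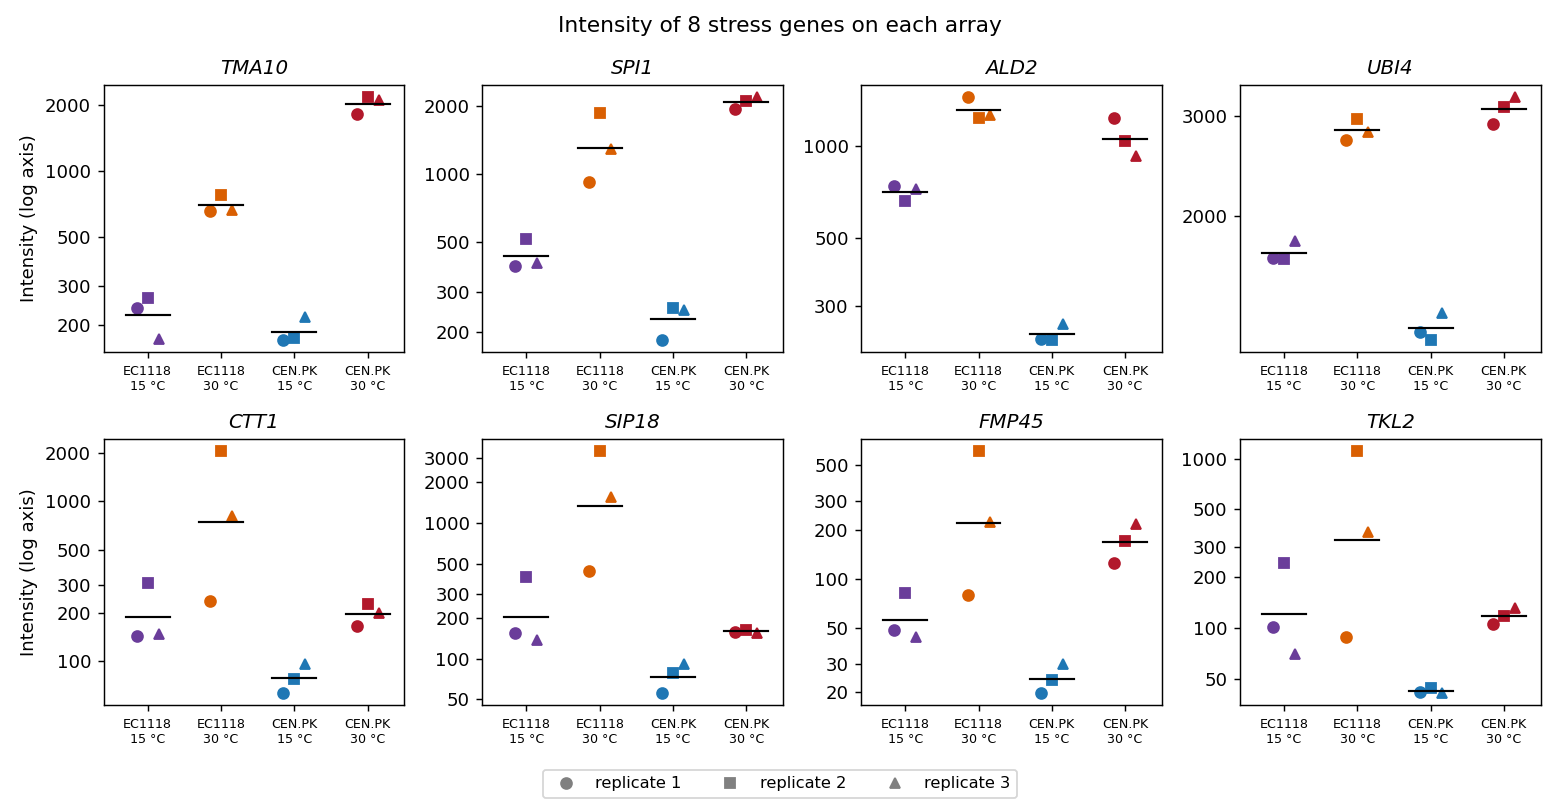
Intensity on each array, on a log axis, of TMA10, SPI1, ALD2 and UBI4 in the upper row and CTT1, SIP18, FMP45 and TKL2 in the lower row, with a line at the mean of log2 values of each group. In the upper row the 30 °C arrays are above the 15 °C arrays in both strains, and in the lower row EC1118 replicate 2 at 30 °C is the highest point of its panel and replicate 1 the lowest of its group.

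SOL4, GND2, NQM1 and TKL2 encode the minor isoenzymes of the pentose phosphate pathway, which makes NADPH and pentoses. TKL2, a transketolase, read 102, 241 and 70.4 at 15 °C against 88.4, 1113 and 369 at 30 °C in EC1118, and 41.4, 43.7 and 40.9 against 106, 118 and 131 in CEN.PK113-7D. The 15 °C arrays of CEN.PK113-7D were almost equal, and those of EC1118 at 30 °C spread 12.6-fold, the widest range of any member. TKL2 passed in neither strain, with log2 changes of -1.47 ± 0.74 SE in EC1118 and -1.48 ± 0.74 SE in CEN.PK113-7D (adjusted p = 0.12 and 0.11), while the CEN.PK113-7D arrays fitted alone gave adjusted p = 0.000363. Without replicate 1 at 30 °C the EC1118 fold of TKL2 was 5.35 and passed (adjusted p = 0.00433), against 2.76 with it. SOL4, a phosphogluconolactonase, read 98.7, 212 and 118 at 15 °C against 143, 866 and 381 at 30 °C in EC1118, and 80.1, 129 and 158 against 274, 336 and 427 in CEN.PK113-7D. It fell 2.89-fold in CEN.PK113-7D (adjusted p = 0.0368), and leaving out CEN.PK113-7D replicate 1 or 2 at 15 °C or any 1 of the 3 at 30 °C ended that call, at adjusted p from 0.0518 to 0.116, as did the trend and robust options (adjusted p = 0.0511). In EC1118 its groups overlapped and its log2 change was -1.42 ± 0.56 SE (adjusted p = 0.0534), while without replicate 1 at 30 °C its fold of 2.67 became 4.24 and passed (adjusted p = 0.00368).

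NQM1, a transaldolase, read 293, 409.8 and 215 at 15 °C against 187, 949 and 392 at 30 °C in EC1118, and 150.5, 161 and 132 against 184, 218 and 232 in CEN.PK113-7D. GND2, a phosphogluconate dehydrogenase, read 419.9, 462 and 346 at 15 °C against 375, 1021 and 565 at 30 °C in EC1118, and 265, 280.1 and 244 against 334, 266 and 328 in CEN.PK113-7D. Neither passed in either strain, and for both EC1118 replicate 1 at 30 °C lay within or below the range of the 15 °C arrays. The major isoenzymes, which are no members, were set beside them, and the differences between isoenzymes were not tested. TKL1 read 2628 to 2814 at 15 °C against 2581 to 2744 at 30 °C in EC1118, and SOL3 passed in neither strain. TAL1 rose at 15 °C, by 0.42 ± 0.08 SE on the log2 scale in EC1118 and by 0.23 ± 0.08 SE in CEN.PK113-7D (adjusted p = 0.00145 and 0.0272). GND1 fell 1.15-fold in CEN.PK113-7D (adjusted p = 0.0251) and did not pass in EC1118.

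ALD2 and ALD3 are neighbouring genes for cytosolic aldehyde dehydrogenases that supply beta-alanine for coenzyme A. ALD2 read 739, 662 and 723 at 15 °C against 1446, 1235 and 1263 at 30 °C in EC1118, and 233, 232 and 262 against 1232, 1037 and 927 in CEN.PK113-7D. It fell 1.85-fold in EC1118 and 4.37-fold in CEN.PK113-7D, with the groups apart in both (adjusted p = 9.39e-05 and 6.78e-07). ALD3 read 72.8, 152 and 57.9 at 15 °C against 91.3, 388 and 169.8 at 30 °C in EC1118, and 33.0, 37.6 and 35.6 against 82.3, 88.6 and 102 in CEN.PK113-7D. ALD3 fell 2.57-fold in CEN.PK113-7D (adjusted p = 0.0286), and that call was ended by leaving out any 1 of the 6 CEN.PK113-7D arrays, at adjusted p from 0.0514 to 0.0781. With 50 added to every intensity its CEN.PK113-7D fold was 1.65 and did not pass (adjusted p = 0.0956). Its EC1118 groups overlapped (log2 change -1.08 ± 0.47 SE, adjusted p = 0.0743). GAD1, the glutamate decarboxylase, read 323, 427 and 322 at 15 °C against 896, 1978 and 1360.2 at 30 °C in EC1118, and 165, 178 and 205 against 351, 354 and 444 in CEN.PK113-7D. It fell 3.78-fold in EC1118 and 2.09-fold in CEN.PK113-7D (adjusted p = 0.000127 and 0.00377). PNC1, the nicotinamidase of NAD salvage, fell 1.44-fold in EC1118 and 1.86-fold in CEN.PK113-7D.

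Among genes for proteins of the wall and membranes, SPI1 and FMP45 gave some of the deepest falls in CEN.PK113-7D. The 8 members of this role had a median log2 change of -1.13 in that strain, beside -1.34 for all members. SPI1, an anchored cell wall protein, read 393, 513 and 406 at 15 °C against 919, 1871 and 1296 at 30 °C in EC1118, and 185, 256 and 251 against 1943, 2114 and 2194 in CEN.PK113-7D. It fell 3.01-fold in EC1118 and 9.12-fold in CEN.PK113-7D (adjusted p = 0.000261 and 3.58e-06). FMP45, a membrane protein related to Sur7, read 48.1, 81.4 and 43.6 at 15 °C against 79.0, 616 and 224 at 30 °C in EC1118, and 19.7, 23.8 and 30.0 against 126, 172 and 219 in CEN.PK113-7D. FMP45 fell 6.95-fold in CEN.PK113-7D (adjusted p = 0.0024) and 3.99-fold in EC1118 (adjusted p = 0.0157), where replicate 1 at 30 °C lay below replicate 2 at 15 °C. Without EC1118 replicate 1 at 30 °C its EC1118 fold was 6.69, and without replicate 2 it was 2.40 (adjusted p = 0.0402).

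YGP1, a secreted glycoprotein, read 575, 852 and 350.0 at 15 °C against 1680.1, 3994 and 2694 at 30 °C in EC1118, and 1460.4, 1427 and 2172 against 3096, 3222 and 2831 in CEN.PK113-7D. It fell 4.72-fold in EC1118 (adjusted p = 0.000438), and in CEN.PK113-7D its log2 change was -0.88 ± 0.35 SE (adjusted p = 0.0517) with the groups apart. RTN2, a reticulon of the endoplasmic reticulum, read 167, 231 and 149.7 at 15 °C against 232, 1081 and 441 at 30 °C in EC1118, and 63.0, 76.1 and 94.2 against 128, 159.6 and 153 in CEN.PK113-7D. RTN2 fell 2.68-fold in EC1118 (adjusted p = 0.0191), or 1.78-fold without replicate 2 at 30 °C, and missed the threshold without replicate 1 or replicate 3 at 15 °C (adjusted p = 0.0536 and 0.0586). OM45, a protein of the mitochondrial outer membrane, fell 1.84-fold in EC1118 and 1.98-fold in CEN.PK113-7D, with adjusted p = 0.039 and 0.0222. Its EC1118 call ended without any 1 EC1118 array at 15 °C or any 1 CEN.PK113-7D array other than replicate 3 at 15 °C (adjusted p from 0.0505 to 0.102) or with quantile normalization (adjusted p = 0.0523), and its CEN.PK113-7D call without CEN.PK113-7D replicate 2 at 15 °C or 2 or 3 at 30 °C (adjusted p from 0.0542 to 0.0579). MSC1 fell 2.48-fold in CEN.PK113-7D, a call that ended when replicate 1 or 2 at 15 °C or 2 or 3 at 30 °C of that strain was left out (adjusted p from 0.0521 to 0.0612). PHM7 passed in neither strain, and its EC1118 groups overlapped.

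Members that act on proteins or on other genes fell in both strains. UBI4, the polyubiquitin gene that supplies ubiquitin under stress, read 1694, 1684 and 1811 at 15 °C against 2723, 2958 and 2811 at 30 °C in EC1118, and 1255, 1219 and 1359 against 2905, 3111 and 3231 in CEN.PK113-7D. Its arrays were the most even of all members in EC1118 at 30 °C, at 1.09-fold between the highest and the lowest, and it fell 1.64-fold in EC1118 and 2.41-fold in CEN.PK113-7D (adjusted p = 1.89e-05 and 7.50e-07). XBP1, a repressor of cyclin genes, read 61.4, 74.9 and 48.2 at 15 °C against 133, 343 and 212 at 30 °C in EC1118, and 99.0, 91.8 and 123 against 248, 286 and 316 in CEN.PK113-7D. XBP1 fell 3.52-fold in EC1118 and 2.71-fold in CEN.PK113-7D. USV1, a zinc-finger transcription factor, read 123, 168 and 130.4 at 15 °C against 495, 703 and 508 at 30 °C in EC1118, and 77.4, 82.8 and 105 against 220.2, 222 and 248 in CEN.PK113-7D. It fell 4.04-fold in EC1118 and 2.62-fold in CEN.PK113-7D (adjusted p = 1.15e-05 and 7.05e-05).

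DCS2, a regulator of the mRNA cap-scavenging enzyme Dcs1, read 370.1, 486 and 409 at 15 °C against 1176, 1925 and 1514 at 30 °C in EC1118, and 238, 259.7 and 344 against 1123, 1081 and 1144 in CEN.PK113-7D. It fell 3.60-fold in EC1118 and 4.03-fold in CEN.PK113-7D, while DCS1 itself, no member, fell 1.23-fold and 1.49-fold in those strains. The protease inhibitor genes also fell: TFS1, which inhibits carboxypeptidase Y, by 2.59-fold in EC1118 and 3.25-fold in CEN.PK113-7D, and PAI3, which inhibits proteinase A, by 3.29-fold in EC1118. PAI3 read 10.0, 10.4 and 13.3 in CEN.PK113-7D at 15 °C, with 1 array at the floor, against 41.4, 32.9 and 48.0 at 30 °C, so its fall there was at least 3.62-fold.

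ISF1 and TMA10 gave the deepest falls of the set in CEN.PK113-7D. ISF1, linked to mitochondrial function, read 341, 349 and 432 at 15 °C against 1439, 1352 and 981 at 30 °C in EC1118, and 44.5, 48.3 and 139.8 against 815, 823 and 845 in CEN.PK113-7D. It fell 3.33-fold in EC1118 and 12.4-fold in CEN.PK113-7D (adjusted p = 0.00231 and 2.20e-05), with CEN.PK113-7D replicate 3 at 15 °C above the other two. Its paralogue MBR1, no member, fell 5.67-fold in EC1118 and at least 5.14-fold in CEN.PK113-7D. TMA10, a protein that associates with ribosomes, read 238, 266 and 172 at 15 °C against 660.4, 775 and 666 at 30 °C in EC1118, and 172, 175 and 217 against 1810.5, 2163 and 2091 in CEN.PK113-7D. TMA10 fell 3.15-fold in EC1118 and 10.8-fold in CEN.PK113-7D (adjusted p = 2.21e-05 and 3.68e-07). MOH1, of unknown function, read 115, 142 and 156 at 15 °C against 813, 958 and 888 at 30 °C in EC1118, and 133, 133 and 236 against 797, 623 and 659.8 in CEN.PK113-7D. MOH1 fell 6.47-fold in EC1118 and 4.28-fold in CEN.PK113-7D, with even replicates in EC1118 at both temperatures. SDS24, linked to cell separation, fell 1.80-fold in EC1118 and 2.21-fold in CEN.PK113-7D, and RTC3 passed in neither strain.

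The difference of the temperature effects, EC1118 minus CEN.PK113-7D, asks whether a gene responded unequally in the strains. It passed for 6 of the 35 members, and all 6 were positive, which here means a smaller fall in EC1118. The median difference of the 35 was 0.14 on the log2 scale, with 24 positive and 11 negative, beside 0.04 for all genes. Without EC1118 replicate 1 at 30 °C that median was -0.21, and without replicate 2 it was 0.43. Positive calls made up 17.1% of the members and 8.66% of all genes, and negative calls 0 of the members and 4.37% of all genes, while 3 members were negative at an unadjusted p under 0.05 in limma. The difference was 1.89 ± 0.51 SE for ISF1, 1.78 ± 0.22 SE for TMA10, 1.60 ± 0.32 SE for SPI1 and 1.24 ± 0.15 SE for ALD2 on the log2 scale (adjusted p = 0.036, 0.00132, 0.0106 and 0.00115). UBI4 and DDR48 differed by 0.56 ± 0.09 SE and 0.61 ± 0.14 SE (adjusted p = 0.00464 and 0.0216). All 6 fell in both strains. Their levels at 30 °C were arranged in different ways: TMA10 and SPI1 were lower in EC1118, ALD2 was higher, and ISF1, UBI4 and DDR48 did not pass there. The calls of TMA10, SPI1, ALD2 and UBI4 held without each of the 12 arrays in turn. That of ISF1 was lost in 10 of those fits, all but those without CEN.PK113-7D replicate 3 at 15 °C or EC1118 replicate 1 at 30 °C (adjusted p from 0.0586 to 0.0841), and DDR48 missed the threshold in the fit that omitted replicate 1 of EC1118 at 15 °C (adjusted p = 0.0541) and in the one that omitted its replicate 3 at 30 °C (adjusted p = 0.0535), and with quantile normalization (adjusted p = 0.0714). Without EC1118 replicate 1 at 30 °C, 3 members were negative, namely GAD1, SIP18 and YGP1.

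At 15 °C more members were high in EC1118 than in CEN.PK113-7D. Of the 35, 14 were higher, 1 was lower and 20 did not pass, with a median log2 difference of 0.62 beside 0.05 for all genes. Those higher in EC1118 were 40.0% of the members and 19.0% of all genes, and those lower were 2.86% of the members and 14.0% of all genes. The groups did not overlap for 24 members with EC1118 above, where 26.4% of all genes did so, and for 2 with EC1118 below, where 18.5% did so. ISF1 was 5.56-fold higher in EC1118 (adjusted p = 0.000521), GRE1 4.08-fold (adjusted p = 0.0339), ALD2 2.92-fold (adjusted p = 2.53e-06), GAD1 1.95-fold (adjusted p = 0.0129) and SPI1 1.90-fold (adjusted p = 0.0112). The other higher members were TFS1, PNC1, GTT1, PRX1, SDS24, DCS2, USV1, UBI4 and DDR48, by 1.28-fold for PRX1 to 1.65-fold for TFS1. YGP1 was the 1 lower member, at 2.98-fold (adjusted p = 0.0067).

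Same-numbered arrays of the strains at 15 °C deviated together, with correlations of 0.478, 0.320 and 0.393 over genes for numbers 1, 2 and 3. With the number as a block over all 12 arrays, 16 members were higher. Those added were ALD3 (adjusted p = 0.0299) and RTN2 (adjusted p = 0.0298). That block also covered the 30 °C groups, whose same-numbered arrays did not all deviate together with those of any other group. Fitted alone without a block, the 6 arrays at 15 °C gave 21 higher members. With the block in that fit, 23 were higher. Those added to the unblocked fit of all 12 arrays were ALD3, CTT1, FMP45, GND2, NQM1, OM45, PAI3, RTN2, SIP18 and TKL2. PRX1 was lost (adjusted p = 0.0769). Leaving out 1 array gave 10 to 23 higher members, with 23 without EC1118 replicate 1 at 30 °C and 22 without replicate 2 at 30 °C. The call of DCS2 was lost when CEN.PK113-7D lacked replicate 1 or 2 or EC1118 lacked replicate 2 or 3 at 15 °C (adjusted p from 0.0638 to 0.0983), and that of GRE1 without any 1 of the 3 CEN.PK113-7D arrays or EC1118 replicate 2 or 3 at 15 °C (adjusted p from 0.0544 to 0.107). With 50 added to every intensity the GRE1 difference was 2.65-fold and did not pass (adjusted p = 0.0822). TFS1 lost its call when replicate 2 of CEN.PK113-7D or replicate 1 or 2 of EC1118 at 15 °C was left out (adjusted p from 0.0517 to 0.0584). PRX1 lost its call in 6 of the 12 fits, namely without replicate 1 or 2 at 15 °C or 2 at 30 °C of CEN.PK113-7D, or without replicate 2 or 3 at 15 °C or 3 at 30 °C of EC1118 (adjusted p from 0.0518 to 0.127). It also lost its call in the fit of the 15 °C arrays alone, with median centring and with quantile normalization (adjusted p = 0.117, 0.0563 and 0.0882).

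At 30 °C the share of members higher in EC1118 was near that of all genes, and the share lower was below it. Higher in EC1118 were 8 members, or 22.9%, where 21.0% of all genes were higher, and 2 members were lower, or 5.71%, where 20.4% of all genes were. The median log2 difference was 0.36 beside 0.01 for all genes, and 27 members had a positive difference. That median was 0.17 without EC1118 replicate 2 at 30 °C and 0.60 without replicate 1. Groups without overlap were counted for 11 members with EC1118 above and 2 below, where 28.4% and 26.4% of all genes stood so. SIP18 was 8.42-fold higher in EC1118 (adjusted p = 0.00317), CTT1 3.74-fold (adjusted p = 0.0325), GRE1 3.73-fold (adjusted p = 0.0358), GAD1 3.52-fold (adjusted p = 0.000233) and RTN2 3.28-fold (adjusted p = 0.0104). USV1, GND2 and ALD2 were higher by 2.44-fold, 1.95-fold and 1.24-fold. TMA10 was 2.89-fold lower (adjusted p = 3.94e-05) and SPI1 1.59-fold lower (adjusted p = 0.037).

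The folds of SIP18, CTT1, GRE1 and RTN2 at 30 °C shrank without EC1118 replicate 2, and those of SIP18, CTT1 and GRE1 grew without replicate 1. Without replicate 2 the folds were 5.26 for SIP18 (adjusted p = 0.00884), 2.23 for CTT1 (adjusted p = 0.0977), 2.11 for GRE1 (adjusted p = 0.0913) and 2.18 for RTN2 (adjusted p = 0.0137). Without replicate 1 they were 14.6 for SIP18, 6.59 for CTT1 and 6.47 for GRE1. With 1 array left out, 4 to 15 members were higher and 1 to 4 lower, at 15 without EC1118 replicate 1 at 30 °C and at 4 without CEN.PK113-7D replicate 2 at 30 °C. TMA10, SIP18, GAD1, RTN2 and USV1 kept their calls in all 12 fits, and ALD2, CTT1, GRE1, SPI1 and GND2 lost theirs in some. CTT1 and GRE1 lost theirs without any 1 CEN.PK113-7D array at 30 °C or EC1118 replicate 2 or 3 at 30 °C, and SPI1 without any 1 CEN.PK113-7D array or EC1118 replicate 1 or 3 at 30 °C (adjusted p from 0.0597 to 0.124 over the 3 genes). The fit of the 6 arrays at 30 °C alone lost the calls of ALD2, CTT1, GND2, GRE1 and SPI1 (adjusted p from 0.0789 to 0.0992), and the trend and robust options lost that of GRE1 (adjusted p = 0.0525). GND2 lost its call without CEN.PK113-7D replicate 2 at 30 °C (adjusted p = 0.0727), and ALD2 in 9 of the 12 fits (adjusted p from 0.0502 to 0.141), all but those without CEN.PK113-7D replicate 3 at 15 °C or 1 at 30 °C or EC1118 replicate 2 at 15 °C.

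**Figure D4:**
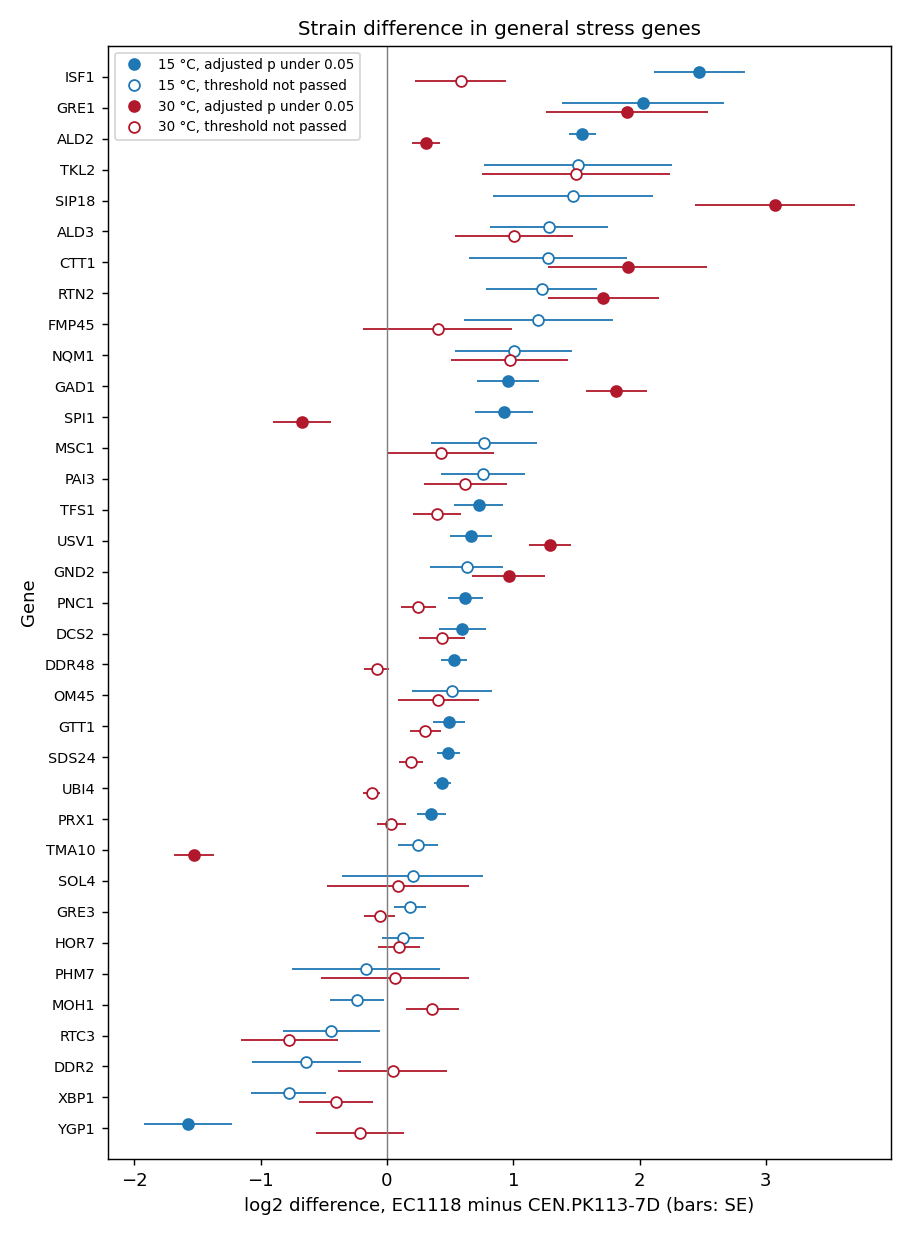
Log2 difference, EC1118 minus CEN.PK113-7D, for each of the 35 genes at 15 °C and at 30 °C, with bars of 1 limma standard error and filled marks for adjusted p under 0.05. At 15 °C 14 genes are called higher in EC1118 and 1 lower, and at 30 °C 8 are called higher and 2 lower, with SIP18 the highest at 30 °C and TMA10 the lowest.

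Within EC1118 at 30 °C the stress genes spread more between arrays, 1 per culture, than in the other groups. The ratio of the highest to the lowest array had a median of 2.38 over the members and of 1.15 over all genes, and it ran from 1.09 for UBI4 to 12.6 for TKL2. In the other groups the member median was 1.52 in EC1118 at 15 °C, 1.35 in CEN.PK113-7D at 15 °C and 1.22 in CEN.PK113-7D at 30 °C. Replicate 2 was the highest of the 3 arrays for 33 of the 35 members and for 45.1% of all genes, and replicate 1 the lowest for 32 members and for 37.8% of all genes. More than 3-fold between arrays was reached by 13 members, namely CTT1, SIP18, GRE1, ALD3, PAI3, RTN2, OM45, FMP45, TKL2, SOL4, NQM1, PHM7 and MSC1, and by 1.01% of all genes. DDR2 (2.90-fold) and RTC3 (2.84-fold) were just under that value, and PAI3 (3.10-fold) and OM45 (3.20-fold) just over it. Replicate 2 of EC1118 at 15 °C was likewise the highest for 26 members, beside 14.6% of all genes. The array medians of EC1118 at 30 °C lay within 356 to 371, and the part of array or culture in this spread was not tested.

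**Figure D5:**
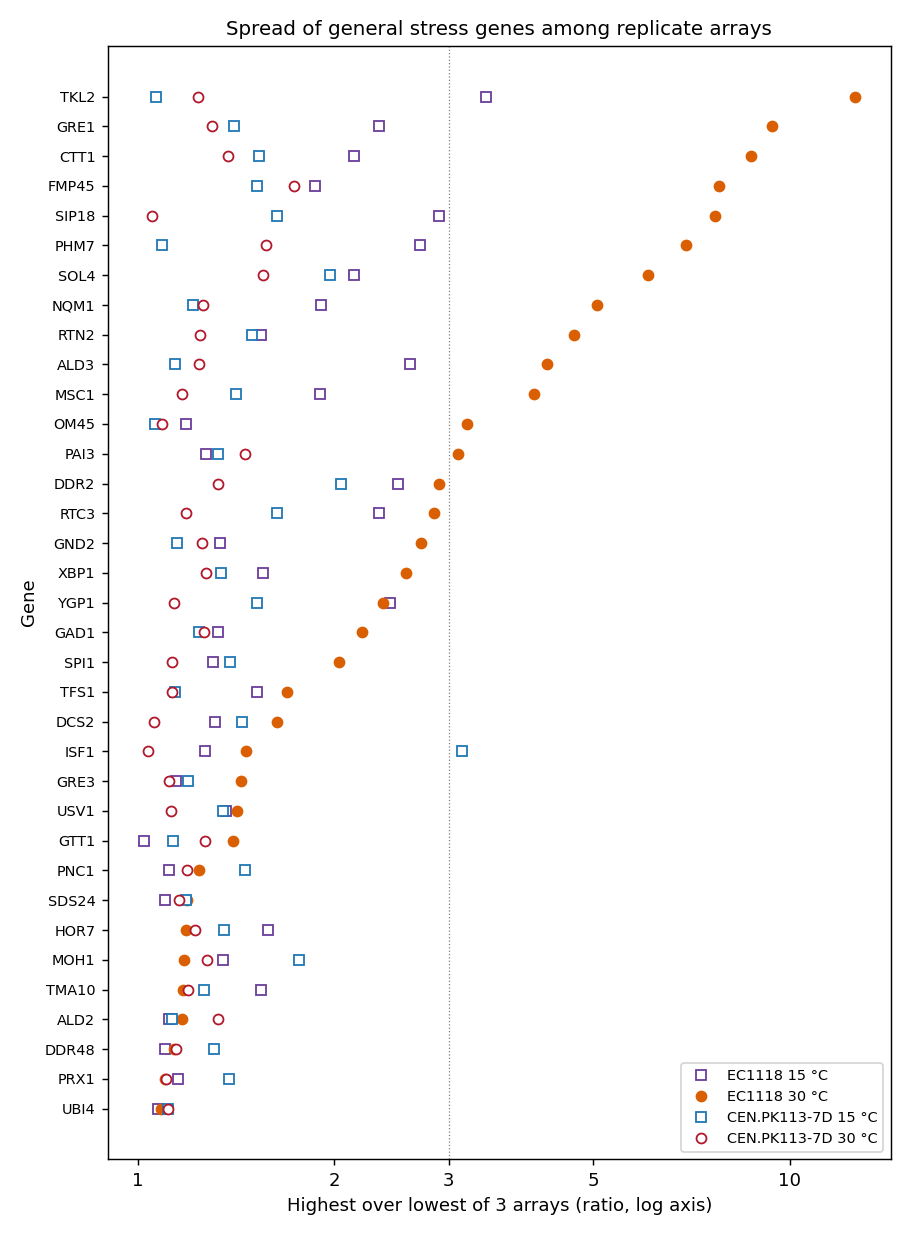
Ratio of the highest to the lowest of the 3 arrays of each group for each of the 35 genes, on a log axis. EC1118 has 1 gene above 3-fold at 15 °C and 13 at 30 °C, and CEN.PK113-7D has 1 at 15 °C and 0 at 30 °C.

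Genes upstream of the set and its chaperone, trehalose and glycogen companions were read for comparison. A list of MSN2, MSN4 and related regulators, not split into activators and inhibitors, had 22 measured members. Of these, 12 fell and 1 rose at 15 °C in EC1118, where 30.0% of all genes fell and 24.2% rose. In CEN.PK113-7D 13 fell and 1 rose, where 36.6% of all genes fell and 21.8% rose, with CYR1 (adenylate cyclase), YAK1 (a kinase opposing protein kinase A), GIS1 and TPK2 among those that fell in both. MSN4 itself read 357, 398 and 332 at 15 °C against 892, 1467 and 1022 at 30 °C in EC1118, and 318, 298 and 373 against 476, 493 and 418 in CEN.PK113-7D. It fell 3.05-fold in EC1118 and 1.41-fold in CEN.PK113-7D, and that difference passed the test (-1.12 ± 0.24 SE on the log2 scale, adjusted p = 0.013). EC1118 had 2.39-fold more MSN4 signal at 30 °C (adjusted p = 0.000214), again with replicate 2 highest. MSN2 fell by 0.39 on the log2 scale in EC1118 (adjusted p = 0.00487), and in CEN.PK113-7D its change was -0.22 ± 0.09 SE (adjusted p = 0.0556). Of 19 other stress targets, 15 fell in EC1118, where 30.0% of all genes fell, and 18 fell in CEN.PK113-7D, where 36.6% did, with HSP78, TSL1 and HSP104 among those of smallest adjusted p in both. In limma 0 of the 19 differed between the strains in their temperature effect, where 8.66% of all genes had a positive and 4.37% a negative difference, and 4 were positive and 0 negative at an unadjusted p under 0.05.

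Several members lie side by side, by the gene order of the RefSeq assembly R64. Chromosome XIII carries 9 of the 35, including ALD3 beside ALD2 and, in a row, DDR48, PAI3 and SIP18. Neighbours did not share a spread in EC1118 at 30 °C, where DDR48 ranged 1.14-fold, PAI3 3.10-fold and SIP18 7.69-fold, and ALD2 ranged 1.17-fold beside 4.25-fold for ALD3. All 5 had a lower mean of log2 intensity at 15 °C than at 30 °C in both strains.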

How the data were processed

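RNA of 12 chemostat cultures was hybridised to Affymetrix Yeast Genome 2.0 arrays, per the labels' protocols. The authors deposited 1 linear intensity per probe set and array, with a floor of 10. How probe signals were summarised and arrays scaled is not given in the sources used here. Gene names came from the platform annotation, and RefSeq R64 gave newer symbols for 12. Of 5900 probe sets, 5498 had 1 gene, 0 several and 402 were unnamed here, which left 5449 genes, each represented by its probe set of highest mean.

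Log2 of the deposited intensity entered limma 3.58.1 under R 4.3.3 (lmFit, eBayes, 1 coefficient per group, no block), with two-sided tests and Benjamini-Hochberg adjustment over all genes of each of 5 comparisons at 0.05. A fold against a group with an array at the floor is a lower bound. Errors are limma standard errors. The fit was tested on simulated data in which the spread of a gene was equal in all 4 groups. That simulation cannot test the fit where 1 group spread more, as EC1118 at 30 °C did in the members. The number of arrays, 3 per group, limits the precision.

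The members and gene lists were chosen with earlier results of these data known. Values on every array are given for the up to 8 members of largest change past the threshold in each temperature comparison and in the interaction, the up to 5 per direction in each strain comparison, and CTT1, DDR2, UBI4, XBP1, TKL2, GND2, NQM1, SOL4, ALD2, ALD3, SIP18 and GRE1. PAI3 was added after its values were seen, because of the floor. Pairing by replicate number required same-numbered arrays to deviate together with every correlation above 0.1. EC1118 and CEN.PK113-7D at 15 °C met this, a pairing that comes from the data and not the labels. Alternatives were a replicate block, the compared groups alone, median centring, quantile normalization, a filter on the dimmest 25% of probe sets, eBayes with trend and robust options, 50 added to every intensity, all probe sets as separate features and each array left out. Promoter sequences were not analysed here.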

Additional observations from a re-analysis of the deposited data

Results flagged for a closer look

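Temperature effects that differed between the strains by limma's test of that difference were seen for 6 members, with differences, EC1118 minus CEN.PK113-7D, of 1.89 for ISF1, 1.78 for TMA10, 1.60 for SPI1, 1.24 for ALD2, 0.61 for DDR48 and 0.56 for UBI4 on the log2 scale. All 6 fell at 15 °C in both strains and fell less in EC1118.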

How the results depend on the processing

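Every member called in a temperature comparison kept its direction under each alternative run. The counts lower at 15 °C were 24 in both strains, with 0 higher throughout; a replicate block gave 29 in EC1118 and 27 in CEN.PK113-7D, and the other planned settings, the omission of 1 array apart, gave 20 to 24 and 21 to 33. Median centring moved the median of all genes in CEN.PK113-7D at 15 °C to 0.00 (-0.11 as deposited) and that of the members to -1.22. At 15 °C the strain difference gave 21 higher and 2 lower in the compared groups alone, and 2 lower with median centring. The replicate block in the compared groups alone, added after seeing the data, gave 23 higher. Leaving out 1 array gave 10 to 23 higher and 1 to 2 lower. At 30 °C the compared groups alone gave 5 higher and 1 lower, leaving out both arrays that stood apart, also added, gave 4 lower, and leaving out 1 array gave 4 to 15 higher and 1 to 4 lower. The interaction had 1 negative call with a pseudocount of 50, and 0 to 3 negative and 4 to 8 positive with 1 array left out. The block gave 8 higher and 2 lower at 30 °C, and 6 positive for the interaction. The causes were not tested. Same-numbered arrays of the other 5 pairs of groups did not all deviate together, with correlations from -0.24 to 0.40, and 2 to 4 of the 6 arrays of such a pair correlated best with their own number. Probe sets near the floor of 10 have little range below them. The promoter motif search was not run.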
